A study of Mus musculus with 16 samples.

Results

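The core circadian clock was followed through 10 genes in the terminal ileum of mice: Arntl, Npas2, Per1, Per2, Per3, Nr1d1, Nr1d2, Dbp, Tef and Ciart. They were chosen by gene symbol, the text before the first bar in the annotation column of the count table, and each matched 1 of its 24940 genes. The table gives reads over exons in 16 libraries, 1 per mouse, prepared from polyadenylated RNA of a short piece of ileum next to the cecum. In bulk tissue of this kind fewer cells of a type and less RNA per cell cannot be told apart.

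All mice were on the C57BL/6 strain and carried loxP-flanked Bcl6 (Bcl6 fl/fl). The controls carried nothing else and are called WT, and the liver knockouts also carried Cre recombinase driven by the albumin promoter (Alb-cre, Bcl6 fl/fl) and are called LKO. Each genotype had 4 males and 4 females, and the labels name no treatment. Albumin-Cre acts in hepatocytes, so the ileum keeps the floxed gene, and Bcl6 averaged 15.9 ± 1.61 counts per M reads (CPM, SD, n = 4, M for mega) in male WT, 18.9 ± 2.05 in male LKO, 12.1 ± 2.92 in female WT and 20.7 ± 5.03 in female LKO ileum. Age and the hour of collection are not in the labels. The study housed its mice under a light and dark cycle and used fed or briefly fasted animals, without stating which applied to the ileum. The labels give 1 further datum on each animal, a number in the sample title. These numbers fall into 5 sets of neighbours separated by gaps of more than 10, and several sets hold both genotypes or both sexes. In males every WT number is below every LKO number and only P6359 and P6360 share a set, so number order and genotype can hardly be told apart there. Whether a set shares a day or an hour of collection is not stated.

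The clock of a cell is a transcriptional feedback loop. ARNTL (also called BMAL1) pairs with CLOCK or its relative NPAS2 and switches on genes through E-boxes, among them the Per and Cry genes, whose products return to block the pair. NR1D1 and NR1D2 (REV-ERB alpha and beta) form a further loop by repressing Arntl at elements that ROR receptors activate, and DBP and TEF drive their targets through D-boxes. In the gut the loop runs in epithelial and muscle cells, follows the light cycle and feeding time, and moves transcripts of nutrient transporters over the day. For that reason the level of a clock transcript depends on when an animal was sampled.

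The sequence immediately before the transcription start was available for 9 of the 10 genes, all but Per2, from RefSeq on GRCm38.p6, the assembly also called mm10. Each window holds the 250 bases upstream of the start of the transcript counted, on the strand of the gene. They were searched on both strands for the E-box CACGTG, the related CACGTT, the D-box TTATGNAA and the cyclic AMP element TGACGTCA. For the ROR element only the core AGGTCA was searched, without flanking bases. No listed motif contains another, and no matches overlapped in these windows. The windows with a match are shown, with every match in capitals. A match is a run of letters only, and binding to these windows was not measured.

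Nr1d1, chr11:98775378-98775627, minus strand: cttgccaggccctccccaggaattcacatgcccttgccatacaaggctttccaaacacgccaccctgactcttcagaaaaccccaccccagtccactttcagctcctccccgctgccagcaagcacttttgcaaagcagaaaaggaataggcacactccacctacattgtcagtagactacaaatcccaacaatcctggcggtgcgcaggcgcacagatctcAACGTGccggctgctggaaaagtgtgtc
Nr1d2, chr14:18239107-18239356, minus strand: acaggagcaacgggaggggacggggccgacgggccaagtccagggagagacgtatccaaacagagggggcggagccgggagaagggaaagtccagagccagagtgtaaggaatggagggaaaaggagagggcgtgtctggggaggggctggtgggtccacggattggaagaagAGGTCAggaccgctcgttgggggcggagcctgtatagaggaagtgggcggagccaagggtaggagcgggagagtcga
Per1, chr11:69098699-69098948, plus strand: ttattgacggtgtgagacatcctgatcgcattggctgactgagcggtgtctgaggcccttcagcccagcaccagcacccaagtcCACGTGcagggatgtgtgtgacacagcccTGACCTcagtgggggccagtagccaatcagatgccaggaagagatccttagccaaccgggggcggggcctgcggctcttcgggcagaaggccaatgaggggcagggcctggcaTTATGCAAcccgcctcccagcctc
Per3, chr4:151044666-151044915, minus strand: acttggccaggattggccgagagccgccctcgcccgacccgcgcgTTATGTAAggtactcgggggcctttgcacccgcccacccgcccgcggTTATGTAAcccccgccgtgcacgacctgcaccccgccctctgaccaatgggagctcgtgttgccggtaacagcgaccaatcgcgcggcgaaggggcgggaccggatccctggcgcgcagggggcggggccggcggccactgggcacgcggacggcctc
Tef, chr15:81811164-81811413, plus strand: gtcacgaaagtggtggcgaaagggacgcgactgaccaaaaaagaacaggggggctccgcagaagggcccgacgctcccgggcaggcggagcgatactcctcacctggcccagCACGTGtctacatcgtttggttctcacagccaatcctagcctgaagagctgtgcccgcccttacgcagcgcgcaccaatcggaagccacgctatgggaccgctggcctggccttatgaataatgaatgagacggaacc
Ciart, chr3:95882229-95882478, minus strand: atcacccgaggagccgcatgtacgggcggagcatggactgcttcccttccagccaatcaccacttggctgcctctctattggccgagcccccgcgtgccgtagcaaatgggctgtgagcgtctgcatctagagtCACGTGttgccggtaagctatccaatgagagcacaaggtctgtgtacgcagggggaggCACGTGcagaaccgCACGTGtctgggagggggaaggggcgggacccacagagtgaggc

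Ciart had 3 E-boxes, the nearest beginning 44 bases before the start. Per1 and Tef had 1 E-box each, and Per1 also had a D-box 24 bases and a ROR core 137 bases before its start. Per3 held 2 D-boxes, Nr1d1 a CACGTT match and Nr1d2 a ROR core. The E-box was present in 3 of the 9 windows, against 6.02% of all 32851 RefSeq windows of this length, and the D-box in 2, against 3.07%. The ROR core was in 2 of the 9 windows, against 14.0% of all, and CACGTT in 1, against 3.85%. The cyclic AMP element, found in 1.55% of all windows, was in none of the 9. Arntl, Npas2 and Dbp had no match, which says only that these letters are not in this window.

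The libraries held 15.7 to 20.5 M gene counts, except the deepest, female LKO replicate 1, with 60.3 M. No pair of replicates among the 24 within groups was as alike as sampling noise alone would make them, and nothing in the labels says more of them than that they are separate animals. Defining markers of the ileal epithelium were high in every library. Their sum over 6 enterocyte genes lay between 10880 and 13530 CPM. Paneth cell genes summed to 7145 to 8668 CPM in male WT and 11250 to 13280 CPM in male LKO. In females they overlapped, with 9494 to 13050 CPM in WT and 11090 to 12700 CPM in LKO. Of the 5 Paneth genes, 3 differed by genotype in males at an adjusted p below 0.05 in edgeR, among 8 of 15169 genes. In females 0 of the 5 did, among 6 of 15298 genes. B-cell follicle genes varied most, from 17.8 to 122 CPM in male WT, 22.7 to 26.0 in male LKO, 24.3 to 73.1 in female WT and 29.2 to 390 in female LKO. The part of the Paneth and B-cell follicle genes in the clock results was not tested.

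Per length, Arntl was the most abundant clock transcript, with 23.0 ± 2.53 reads per kilobase and M reads (RPKM, SD, n = 16). Nr1d1 followed at 18.5 ± 8.29 RPKM and Npas2, the partner that can replace CLOCK, at 13.7 ± 1.63 RPKM. The period genes lay lower, at 7.69 ± 3.04 RPKM for Per1, 5.73 ± 2.93 for Per2 and 0.995 ± 0.259 for Per3. Tef had 5.08 ± 1.10 RPKM, Nr1d2 4.41 ± 0.988 and Dbp, a D-box factor of high daily amplitude in many tissues, 2.04 ± 0.608. Ciart, whose product (CHRONO) represses the ARNTL and CLOCK pair, was the lowest at 0.440 ± 0.205 RPKM, which is 0.610 CPM. In that order the ranges over animals of all 9 neighbouring pairs overlapped. Compared animal by animal, Nr1d2 was above Dbp, Dbp above Per3 and Per3 above Ciart in 16 of 16 animals, while the other 6 pairs were in that order in 9 to 14 animals.

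**Figure D1:**
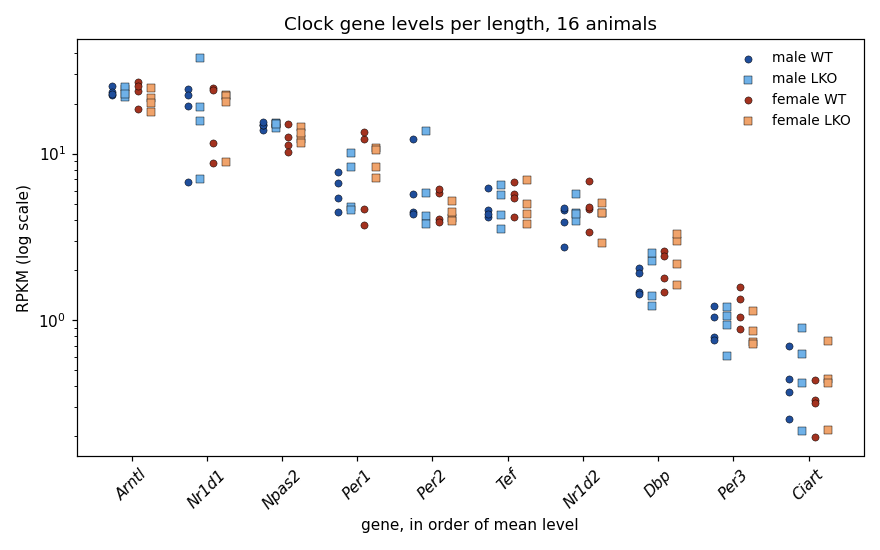
Level per length of each clock gene in the 16 animals, in RPKM on a log axis, with genes in order of mean level and groups side by side within a gene. Arntl and Npas2 form tight clusters, whereas Nr1d1 runs from 6.76 to 37.6 RPKM.

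Arntl and Npas2 varied least between animals, and Nr1d1, Ciart, Per1 and Per2 varied most. The highest Arntl level was 1.51 times the lowest, and the same ratio was 1.51 for Npas2. Nr1d1 spanned a ratio of 5.56, Ciart 4.53, Per1 3.64 and Per2 3.60. Within a group, the SD of log2 CPM was 0.82 for Nr1d1, 0.60 for Per1, 0.58 for Ciart and 0.58 for Per2, against a median of 0.16 over 15600 genes. That put Nr1d1 above 99.2% of genes and Per1, Ciart and Per2 above 96.8%, 96.5% and 96.3%. Ciart had only 5 to 24 counts per library outside the deepest, and the part of counting noise in its spread was not tested. Dbp had an SD of 0.40, Per3 0.35, Nr1d2 0.34 and Tef 0.34, all above 83.0% of genes. Arntl, at 0.16, and Npas2, at 0.14, lay at the middle of the range, above 52.6% and 44.1% of genes.

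Genotype was asked first, since loss of Bcl6 in the liver is the contrast that the study was built on. No clock gene differed between LKO and WT ileum in males, where 8 of 15169 genes tested (0.0527%) were called, or in females, where 6 of 15298 (0.0392%) were called. With both sexes together and sex as a term, 0 of the 10 clock genes and 42 of 15598 genes (0.269%) passed. A call here is an adjusted p below 0.05 in the quasi-likelihood test of edgeR with Benjamini-Hochberg adjustment over all genes tested. At an unadjusted p below 0.05 there was 1 clock gene in females, Per3, beside 11.7% of all genes, and 0 in males and over both sexes, beside 5.29% and 11.2%. DESeq2 called 0 clock genes in each of these comparisons as well, beside 63 of 15169 genes in males, 155 of 15298 in females and 224 of 15598 over both sexes. The median log2 fold change (LKO minus WT) of the 10 genes was 0.085 in males, -0.043 in females and 0.0092 over both sexes, beside -0.0020, 0.0070 and 0.00065 for all genes tested.

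Arntl, the factor at the head of the loop, was measured at 73.2, 67.7, 64.9 and 66.1 CPM in male WT and 70.7, 72.6, 63.1 and 66.2 CPM in male LKO. In females it stood at 77.7, 68.6, 53.7 and 73.4 CPM in WT and 71.7, 62.0, 51.4 and 58.4 CPM in LKO. The genotypes overlapped in both sexes. Over both sexes its log2 fold change was -0.079 (SE 0.073, 95% interval -0.24 to 0.079, adjusted p = 0.745 in edgeR). Npas2 gave 0.040 (SE 0.064, interval -0.097 to 0.18), so for these genes changes beyond about that width lie outside the interval.

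The same comparison was far less precise for Nr1d1, which encodes the heme-binding repressor REV-ERB alpha. Male WT animals had 52.9, 67.5, 62.3 and 18.6 CPM and male LKO animals 19.5, 43.5, 52.5 and 104 CPM. Female WT animals had 32.0, 24.3, 68.5 and 66.7 CPM and female LKO animals 24.7, 61.8, 60.7 and 56.3 CPM. Every group thus held at least 1 low animal, and the genotypes overlapped throughout. In males the fold change on the log2 scale was 0.13 (SE 0.61), and -1.29 with the title number as a covariate; in females 0.071 (SE 0.46) and over both sexes 0.099 (SE 0.37, interval -0.70 to 0.90, adjusted p = 0.953 in edgeR).

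Per2, a repressor of the loop and a light- and hormone-responsive gene, was estimated with a similar error. Its log2 fold change over both sexes was -0.054 (SE 0.29, interval -0.68 to 0.58). Per3, the least abundant of the period genes, passed an unadjusted p only, in females. Female WT animals had 8.04, 6.33, 9.55 and 5.32 CPM and female LKO animals 5.19, 4.46, 6.86 and 4.30 CPM, which overlap, and the log2 fold change was -0.49 (SE 0.20, adjusted p = 0.381 in edgeR). Over both sexes it was -0.25 (SE 0.16). Ciart had the highest fitted ratio, with a log2 fold change of 0.30 (SE 0.43) in males, 0.66 (SE 0.40) in females and 0.47 (SE 0.30, interval -0.18 to 1.11, adjusted p = 0.607 in edgeR) over both sexes, at a level of 0.274 to 1.24 CPM.

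**Figure D2:**
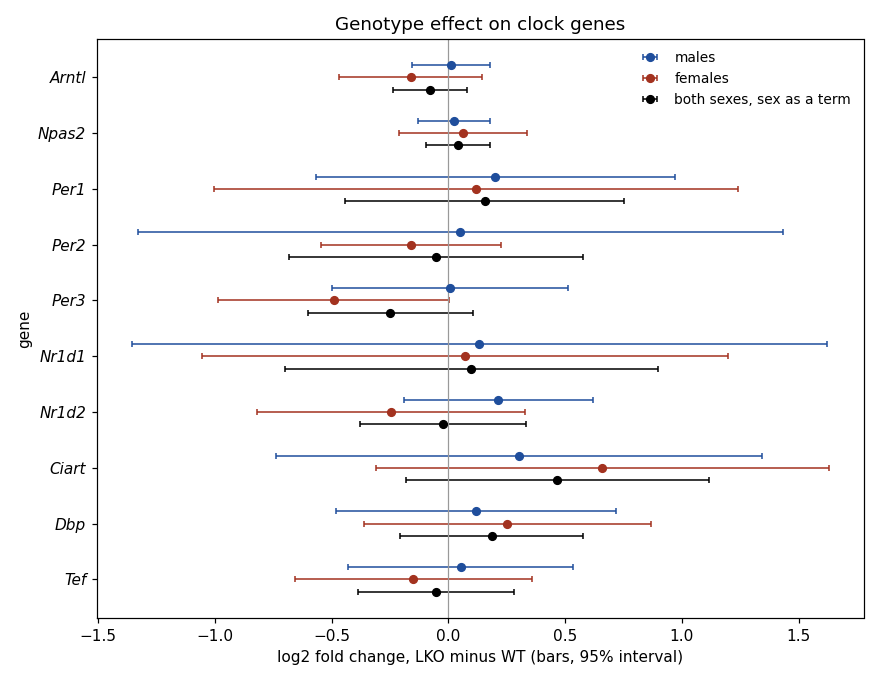
Log2 fold change of each clock gene, LKO minus WT, in males, females and both sexes, with 95% intervals. Every interval includes 0; intervals use the residual degrees of freedom of each fit, fewer than the moderated ones behind the p-values.

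The genotype effect was then compared between the sexes by an interaction term. For the clock genes the male minus female difference ran from -0.35 for Ciart to 0.49 for Per3, with 0 of 10 called among 15598 genes of which 0 (0%) were called by edgeR. At an unadjusted p below 0.05 edgeR had 0 clock genes and 879 of all genes (5.64%), and DESeq2 called 0 genes. In WT ileum, males and females differed in 0 of the 9 clock genes tested, beside 38 of 15229 genes (0.25%), with Ciart below the filter on low counts. In LKO ileum 0 of 10 passed, beside 15 of 15250 (0.0984%).

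Npas2 was the 1 clock gene below an unadjusted p of 0.05 between the sexes in each genotype, where 13.9% of all genes in WT and 22.6% in LKO were below it, so 1 of 9 and 1 of 10 clock genes is no more than the background. In WT it ran from 57.3 to 64.1 CPM in males, and the females had 47.1, 52.5, 42.4 and 62.8 CPM, so that the ranges overlapped through 1 female. The log2 difference, male minus female, was 0.25 (SE 0.10, adjusted p = 0.302 in edgeR). In LKO it was 0.21 (SE 0.071, adjusted p = 0.125), with males at 59.6 to 63.3 CPM and females at 50.8, 59.9, 55.1 and 48.4 CPM. Smooth muscle markers had a median log2 difference, male minus female, of -0.33 in WT and -0.45 in LKO over 6 genes, of which 0 were called in each. Their part in the Npas2 difference was not tested.

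As no clock gene was called for genotype or sex, the animals were next read in the order of their title numbers. The lowest numbers, P6308 to P6310, belong to female WT replicates 1 and 2 and female LKO replicate 1. Numbers P6339 to P6342 are male WT replicates 1 to 3 and female WT replicate 3. Numbers P6359 to P6364 begin with male WT replicate 4 and male LKO replicate 1 and go on with female LKO replicate 2, female WT replicate 4 and female LKO replicates 3 and 4. Male LKO replicates 2 and 3 are P6392 and P6395, and replicate 4 is P6444.

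Nr1d1 levels lay close together within a set and sex. The 3 females of the first set had 24.3 to 32.0 CPM, and the 3 males of the second had 52.9 to 67.5 CPM, beside 68.5 CPM in its female. In the third set the 2 males, 1 WT and 1 LKO, had 18.6 and 19.5 CPM, whereas its 4 females, 1 WT and 3 LKO, had 56.3 to 66.7 CPM. The remaining males lay at 43.5 and 52.5 CPM and, for number P6444, at 104 CPM. The WT and LKO animals of 1 sex and set thus lay close together, and the males and females of the third set did not overlap.

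Per2 took the reverse pattern in part of the animals. The 2 males of the third set had 70.7 and 79.5 CPM, and the other 14 animals lay between 22.1 and 35.5 CPM. Within those 14, the 3 females of the first set had 33.8, 35.5 and 30.0 CPM, beside 22.7 to 26.0 CPM in the 4 females of the third. The 2 animals with the highest Per2 were thus those with the lowest Nr1d1.

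**Figure D3:**
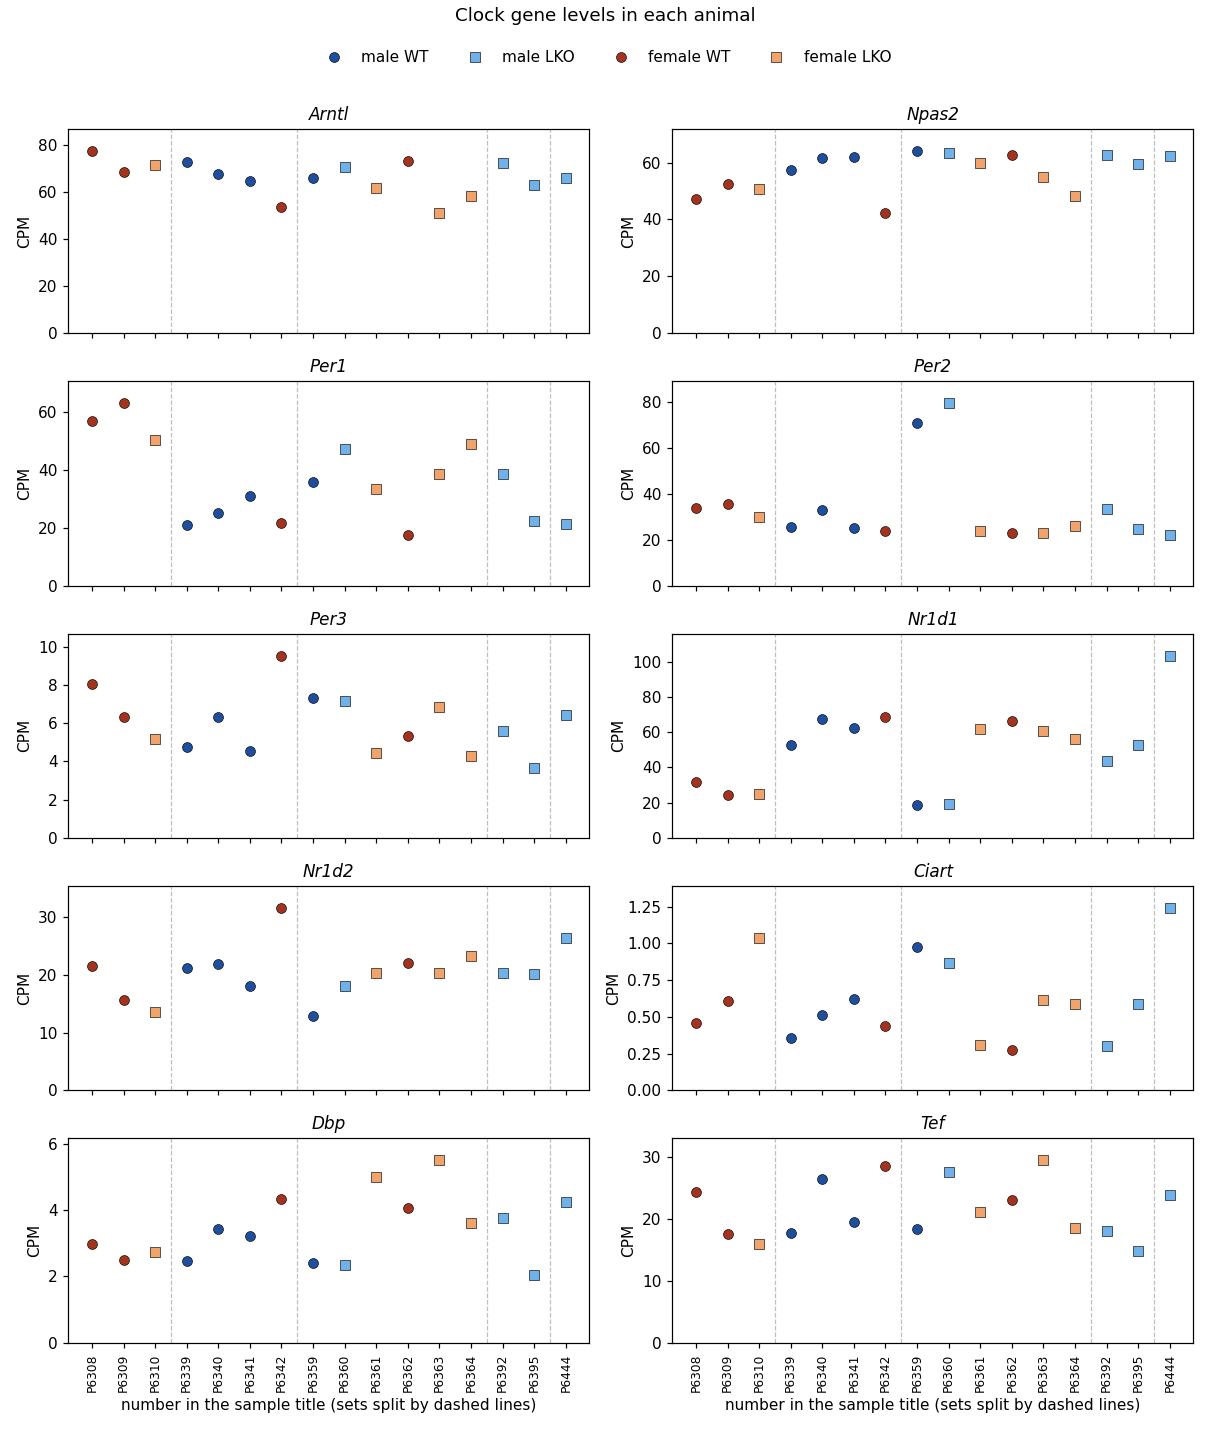
CPM of each clock gene in the 16 animals in the order of their title numbers, with dashed lines between sets, colour and shape for sex and genotype, and axes from 0. Per2 stands out in P6359 and P6360, where Nr1d1 is at 18.6 and 19.5 CPM, and Arntl stays between 51.4 and 77.7 CPM throughout.

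The other members had these levels by set. Nr1d2, the second REV-ERB, had 13.5 to 21.5 CPM in the first set, 12.8 and 18.1 in the males of the third and 31.6 CPM in P6342. Per1, an immediate target of glucocorticoid and cyclic AMP signals as well as of the loop, had 50.1 to 62.9 CPM in the first set and 17.3 to 49.0 CPM elsewhere, with no overlap. Dbp had 2.48 to 2.99 CPM in the first set, 2.34 and 2.41 CPM in P6360 and P6359, and 3.61 to 5.51 CPM in the females of the third set. Its lowest value was 2.05 CPM, in P6395, and P6339 had 2.47 CPM, with Nr1d1 at 52.5 and 52.9 CPM in them. Ciart reached 1.24 CPM in P6444, 1.03 CPM in P6310 and 0.975 and 0.865 CPM in P6359 and P6360, against 0.274 to 0.618 CPM in the other animals.

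In a fit with the group and the set as terms, 0 of 10 clock genes passed the adjusted threshold, as did 0 of 15598 genes (0%). At an unadjusted p below 0.05 there were 7 of the 10, Nr1d2, Nr1d1, Per2, Dbp, Per1, Ciart and Tef in the order of their p, beside 812 genes (5.21%). Their adjusted p in edgeR was 0.252 for Nr1d2, 0.380 for Nr1d1, 0.398 for Per2 and 0.903 or higher for the others. DESeq2 called 78 genes, of which 3 were clock genes, Per2 (adjusted p = 1.36e-08), Nr1d1 (2.93e-06) and Nr1d2 (0.000436). The count of 7 fell to 3 without female WT replicate 2, beside 678 of 15718 genes. It fell to 4 without female LKO replicate 1 or 2, beside 603 of 15711 and 715 of 15699 genes. Without male WT replicate 4 or without female WT replicate 3, edgeR called Nr1d1 and Per2, among 3 of 15692 and 11 of 15694 genes called. The adjusted p for Nr1d1 in edgeR was then 3.93e-05 and 8.96e-06. Without either library, however, the fit is the same as that with the sets split by sex, given next.

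Because the males and females of the third set differed, the sets were also split by sex, a choice made after these values were seen. In that fit edgeR called 9 of 15598 genes (0.0577%), and Nr1d1 (adjusted p = 1.52e-05) and Per2 (adjusted p = 0.00136) were among them. DESeq2 called 165, with 3 clock genes, and edgeR 3 without male WT replicate 4 and 30 without female LKO replicate 4. At an unadjusted p below 0.05 there were 4 of the 10 clock genes beside 977 genes (6.26%), the others being Nr1d2 (adjusted p = 0.189) and Ciart (adjusted p = 0.688). These sets took 97.7% of the within-group sum of squares of log2 CPM for Nr1d1, 93.7% for Per2 and 83.6% for Nr1d2. The other 7 members ranged from 54.3% for Per3 to 74.6% for Ciart, and the median over all genes was 40.7%. Since the split was drawn from the same values, these adjusted p-values describe the animals at hand and are not a separate test.

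**Figure D4:**
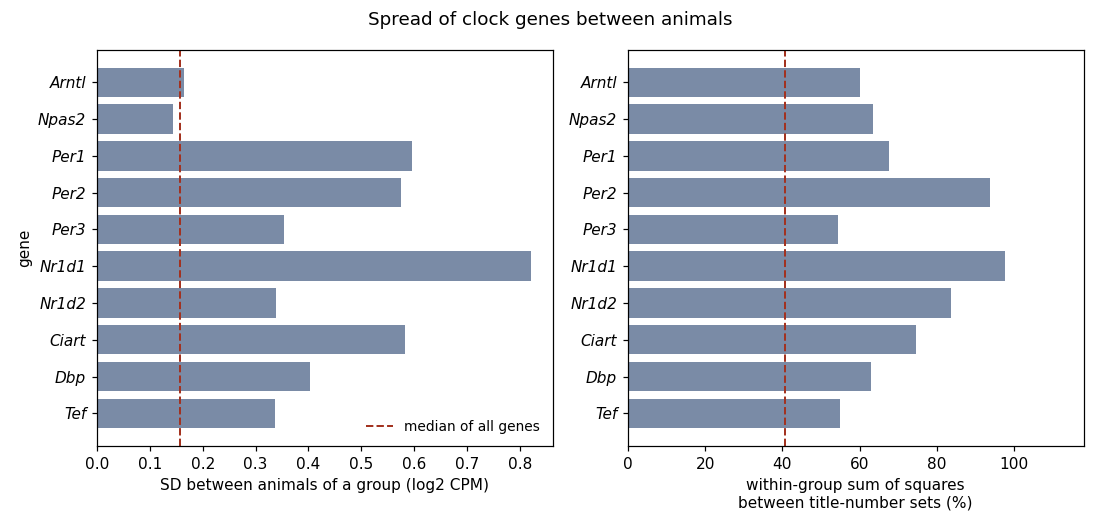
On the left, the SD of log2 CPM between animals of a group for each clock gene; on the right, the share of the within-group sum of squares that lay between title-number sets split by sex. Dashed lines are the medians of all genes, 0.16 and 40.7%; Nr1d1 has the longest bar in each panel.

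The genotype effect over both sexes was also fitted with the set as a factor. The log2 fold change of Nr1d1 was then -0.044 with an SE of 0.25, in place of 0.37, and that of Per2 -0.074 with an SE of 0.25, in place of 0.29. With the sets split by sex the SEs were 0.10 and 0.11. That split was drawn on the values of these genes, and the part of this choice in the smaller SEs was not tested. None of these log2 fold changes was called. Without the 3 animals of the first set, left out after the values were seen, the log2 fold change of Per1 in females was 1.04 (SE 0.19, adjusted p = 0.303 in edgeR) in place of 0.12 (SE 0.46). The female WT animals that remain had 21.7 and 17.3 CPM and the female LKO animals 33.4, 38.4 and 49.0 CPM. That fit rests on 2 and 3 animals, and the 2 WT animals come from different sets.

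Among 16 other components of the clock, 15 were expressed enough to be tested, and edgeR called 0 of them in any comparison, split sets included. The sets had 3 of the 15 below an unadjusted p of 0.05 in edgeR, beside 5.21% of all genes. Cry1, the repressor that partners the PER proteins, had 59.3 and 62.4 CPM in P6359 and P6360 and 29.7 to 47.0 CPM in the other 14 animals, with no overlap (adjusted p = 0.252 in edgeR). Cry2 ran from 14.5 to 28.3 CPM over all animals (adjusted p = 0.903 in edgeR). Clock, the usual partner of ARNTL, ran from 47.4 to 75.3 CPM. Of 7 genes that the clock drives in the gut or other tissues, 2 were below that p, Usp2 and the peptide transporter gene Slc15a1.

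Genes that other daily or acute signals move were read beside them. Of 6 glucocorticoid-responsive genes 5 had an unadjusted p below 0.05 between the sets and 0 were called, beside 5.21% and 0% of all genes. With the sets split by sex 4 had that p and 1 was called, beside 6.26% and 0.0577% of all genes. The called gene was Tsc22d3, also known as Gilz (adjusted p = 0.00875 in edgeR), which lies outside the rule for named genes. Tsc22d3 had 69.2 to 72.2 CPM in the first set, 46.5 and 61.5 CPM in P6359 and P6360, and 27.5 CPM in P6444. The 6 genes summed to 325 to 374 CPM in the first set and 207 CPM in P6444. In the third set they summed to 305 to 485 CPM in males and 372 to 432 CPM in females. Of 7 immediate early genes 2 passed the unadjusted p, Fosb and Jun, and of 5 fasting-responsive genes 1 did, Cpt1a. B-cell follicle, T-cell, smooth-muscle and Paneth lists had 0 of 7, 6, 6 and 5 genes below that p between the sets, the enterocyte list 2 of 6 and the neuron and glia list 1 of 6. With the sets split by sex the enterocyte list had 4 of 6, Fabp6, Slc51b, Vil1 and Slc10a2, with 0 called, and the other cell-type lists had 0. The part of any of these in the clock levels was not tested.

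Coupling between the members was described by correlation of log2 CPM over the 16 animals. With Arntl as the reference, 0 of 9 members passed the adjusted threshold, beside 0 of 15597 genes (0.0%), and 1 passed at an unadjusted p, beside 1225 genes (7.85%). That 1 was Dbp, with r = -0.51 (permutation p = 0.0409, adjusted p = 0.609) and rho = -0.38 (permutation p = 0.151, adjusted p = 0.894). Without the 2 animals farthest from the Arntl median r was -0.18, so the relation rests on those animals. For Nr1d1, the direct repressor of Arntl, r was -0.39 (permutation p = 0.139, adjusted p = 0.769) and rho -0.33 (permutation p = 0.213, adjusted p = 0.914).

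The genes most like Arntl outside the lists, among those with a mean of at least 1 CPM, were Ndufaf2 (r = 0.83), Uqcrb (0.81), Acvr1 (0.80), Tdrd3 (0.79) and A4gnt (0.79). The least like it were Jak3 (r = -0.85), Prex1 (-0.82), Fkbp1b (-0.81), Relt (-0.81) and Cnp (-0.81). Spearman's rho had the same sign for each, from 0.59 to 0.81 among the first 5 and from -0.83 to -0.69 among the last 5. As these genes were picked by r in the same animals, the shared sign is not separate support. The smallest adjusted p among all genes was 0.156, reached by Jak3 at the smallest p that the permutations can give, 1e-05. Without the 2 farthest animals these r were 0.57, 0.48, 0.68, 0.50 and 0.73 for the first 5 and -0.74, -0.66, -0.75, -0.60 and -0.56 for the last 5.

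With Nr1d1 as the reference, a choice made after the values were seen, 0 of 15597 genes passed the adjusted threshold (0.0%), and 4 of 9 members passed at an unadjusted p, beside 1178 genes (7.55%). Per2 had r = -0.83 (permutation p = 4e-05, adjusted p = 0.0891) and rho = -0.82 (permutation p = 0.00031, adjusted p = 0.246). Without P6359 and P6360, the animals farthest from the Nr1d1 median, r was -0.74. The sets described above, split by sex, took up 97.7% and 93.7% of the variation of Nr1d1 and Per2 within groups. With values centred within set and sex, r was -0.064, on the little variation that was left, and no p was computed. The other 3 members were Nr1d2 (r = 0.78, rho = 0.74), Per1 (r = -0.69, rho = -0.69) and Dbp (r = 0.66, rho = 0.71), with permutation p of 0.00033, 0.00372 and 0.00665 for r, 0.00164, 0.00427 and 0.00291 for rho, and adjusted p for r of 0.184, 0.395 and 0.463. Centred within set and sex, their r with Nr1d1 was 0.45, -0.33 and 0.091.

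**Figure D5:**
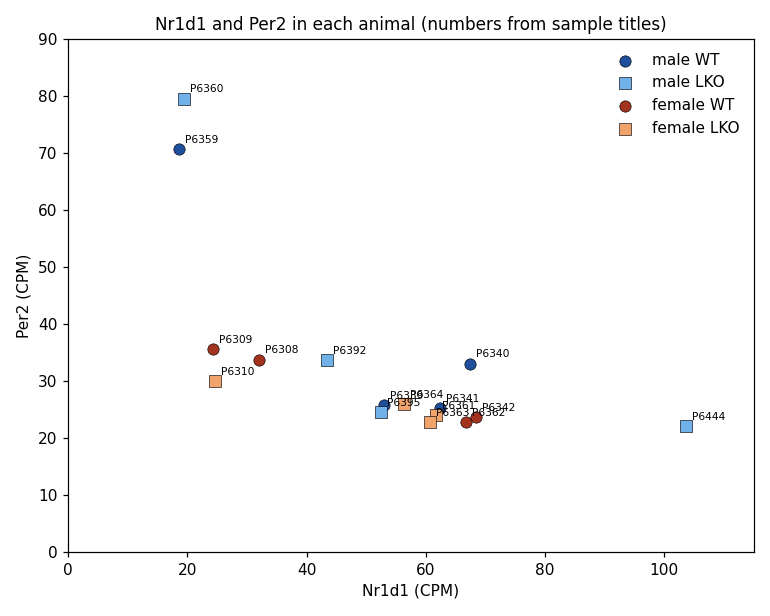
Nr1d1 against Per2 in each animal, in CPM, with the number from the sample title beside each point. Animals P6359 and P6360 lie at the upper left, with 70.7 and 79.5 CPM of Per2, and P6444 at the far right, with 104 CPM of Nr1d1.

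A limit of the read assignment concerns 3 members. Nr1d1 (chr11:98767932-98775377) overlaps the end of Thra, on the other strand, over 1075 bases, Dbp (chr7:45705247-45710203) overlaps Sphk2 over 741 bases, and Ciart (chr3:95878505-95882228) lies wholly within the interval of the opposite-strand gene C920021L13Rik. The strand setting of the counting is not stated, but in females Xist had 466 CPM and its antisense partner Tsix 0.452 CPM. Thra correlated with Nr1d1 at r = 0.86 (permutation p = 2e-05, adjusted p = 0.0780) and rho = 0.95 (permutation p = 1e-05, adjusted p = 0.156), and ranged from 58.2 to 88.8 CPM, a narrower span than that of Nr1d1.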

How the data were processed

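Terminal ileum RNA of 16 mice was sequenced by the authors as stranded mRNA libraries with single-end reads. Per the submitters' processing notes the tools were STAR 2.5.2 and HOMER 4.10 on mm10. The deposited table holds raw whole-number counts over the exons of each gene, with 1 transcript kept per gene and no adjustment by the authors; the strand setting and the annotation version are not given in the sources used here. Counts of overlapping genes on opposite strands could be mixed if strand was ignored. Every per-sample column was used, and groups and replicates came from the sample titles.

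The members and lists were chosen with earlier results of these data known. Tests on counts used edgeR 4.0.16 in R 4.3.3 and its quasi-likelihood F statistic (TMM scaling, filterByExpr by group, robust fits, Benjamini-Hochberg adjustment over all genes tested, threshold 0.05). Single-sex and single-genotype comparisons used 8 libraries, the others all 16. SEs were obtained from the fold change and F (absolute log2 value over the root of F). CPM and RPKM were scaled by TMM. RPKM used the exon length in the table. Correlations used log2 CPM with a prior count of 2 and 100000 permutations, two-sided. The named genes were the 10 members, the 3 other clock components with the smallest p over the sets where none was called, and the 5 genes with the highest and the 5 with the lowest r with Arntl at a mean of at least 1 CPM. Of the genes this rule picked, 1 is not reported here. Clock, the genes named from other lists and Thra were chosen after their values were seen.

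The 15 libraries other than the deepest hold 15.7 to 20.5 M gene counts, where 3 counts equal 0.147 to 0.191 CPM. The labels do not state that replicate numbers pair the animals, and the main fits did not pair them. Alternatives were DESeq2 1.42.0, RLE and upper-quartile scaling, other filters, a non-robust fit, each library left out, the deepest library thinned, a replicate block, and the title number or its set as a term.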

Additional observations from a re-analysis of the deposited data

Results flagged for a closer look

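Nr1d1 in female LKO replicate 1 was 24.7 CPM, and its distance to the nearest of the other 3 female LKO animals took up most of the range of that group. It was the 1 case among the 40 combinations of clock gene and group examined, and chance flags about 1 in 20 groups. The other animals of that group had 61.8, 60.7 and 56.3 CPM. The library is the deepest of the series, and its title number, P6310, adjoins those of 2 female WT animals with 32.0 and 24.3 CPM of Nr1d1. Without it the log2 fold change of Nr1d1 in females was 0.32 in place of 0.071, and neither was called by edgeR. No clock gene had a genotype effect that differed between the sexes at an adjusted p below 0.05 in edgeR.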

How the results depend on the processing

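In the 122 fits that changed 1 choice for the genotype, interaction and sex comparisons, 0 clock genes were called. Between the title-number sets, edgeR called 0 to 2 clock genes when 1 library was left out (2 only where the fit became that of the split), DESeq2 called 3, and the split by sex, added after the data were seen, 2. The clock genes below an unadjusted p of 0.05 in that test numbered 3 to 7 when 1 library was left out and 4 with the split. All genes below it numbered 593 to 1137 and 977. With the split, Nr1d1 and Per2 were both called in all 19 alternatives run. As the split was drawn from the values of these genes, that is not a separate test. The correlation with Arntl gave 0 called members under each alternative with a p.

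Counts over all genes moved more. DESeq2 called 63 genes in males, 155 in females, 224 over both sexes, 241 between the sexes in WT, 1016 in LKO and 78 between sets, while edgeR called 9 with the sets split by sex, where DESeq2 called 165. With no filter, edgeR called 25 in males, 15 in females, 71 between WT sexes and 139 between LKO sexes. At least 10 counts in every library gave 14 and 1 for the sexes in WT and LKO, the non-robust fit 12 and 8, and upper-quartile scaling 78 in LKO. The title number as a covariate gave 3 in males and 2 over both sexes, and a set factor, whether or not split by sex, 0 over both sexes. Without P6359 and P6360 there were 15 in males, and without P6308 to P6310 there were 0 in females. Leaving out 1 library gave 5 to 29 in males, 0 to 4 in females, 5 to 102 over both sexes, 0 to 1 for the interaction, 9 to 64 between WT sexes, 7 to 665 between LKO sexes, 0 to 11 between sets and 3 to 30 with the sets split by sex. The libraries at the upper ends were male WT replicate 4 for males and for both sexes and female LKO replicate 4 for LKO. The causes were not tested.

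The replicate block called 16 genes in males, 15 in females and 16 over both sexes, with 0 clock genes, and turned the Nr1d1 log2 fold change in males to -0.026. Deviations of same-numbered WT and LKO animals from their group means had correlations between -0.103 and 0.0686 in males and between -0.0628 and 0.256 in females. The best-matching LKO animal had the same number for 1 male and 2 female WT animals. The labels do not state a pairing, and correlations this weak cannot exclude one.

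Of 329 alternatives for the values named singly, 31 turned the sign and none of those values was called. With the title number as a covariate Nr1d1 was -0.68 over both sexes, -1.29 in males and -0.37 in females, Per2 0.27 and Npas2 -0.0034 over both sexes, and Ciart -0.37 in males. With the set as a factor Nr1d1 was -0.044 and Npas2 -0.057, and with the set within sex Nr1d1 was -0.12, Per2 0.0080 and Npas2 -0.075. Without the 5 animals P6308 to P6310, P6359 and P6360 Nr1d1 was -0.0034, and without P6308 to P6310 it was -0.19 in females. Leaving out 1 library, Nr1d1 ran from -0.13 to 0.23 over both sexes, -0.38 to 0.42 in males and -0.15 to 0.32 in females, Per2 from -0.33 to 0.15, Npas2 from -0.0010 to 0.088, Ciart in males from -0.054 to 0.63 and Per1 in females from -0.13 to 0.43. Ciart, at 0.274 to 1.24 CPM, is the member most limited by depth.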
